A study of Chlamydomonas reinhardtii with 18 samples.

Results

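The genes described here are those whose transcript level moved at least 2-fold between 15 min and 24 h in dark control cultures of *Chlamydomonas reinhardtii* and was at least 2-fold the other way in nitrite cultures of 24 h. Of 13564 features that passed a filter on low counts, 64 met this rule. In 43 of them, called control-raised here, the level was higher at 24 h than at 15 min in the control arm and lower with nitrite than without it at 24 h. In the other 21, called control-lowered, both differences ran the opposite way. The members were chosen by 2 measured ratios, taken between group means of CPM (read counts scaled to a common library size, adjusted between libraries by TMM) with 0.5 CPM added, and the highest group mean had to reach 5 CPM. The names give the direction in the rule and imply no test. The cells had been grown in darkness and were already dark when nitrite was given, so the change in the control arm is a change with time in a dark flask and not the response to a shift from light.

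Cells of strain 6145c, a unicellular green alga, were grown at 25 °C in the dark. The groups, each of 3 libraries of polyadenylated RNA, were 10 mM nitrite and control at 15 min, at 3 h and at 24 h of exposure, 18 libraries in all. Each arm had 3 flasks, which per the design text are its replicates and were sampled at every time, and controls were treated alike except that they received no nitrite. No other genotype, agent or light condition was included. The labels do not say whether a replicate number stands for the same flask at each time.

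Nitrite taken up by this alga is normally reduced in the chloroplast to ammonium by nitrite reductase and enters amino acids. It can also give rise to nitric oxide, a signalling molecule and inhibitor of respiration, and nitric oxide can be reduced further to nitrous oxide, the gas named in the study's title. Cells kept dark live on respiration and fermentation of stored or supplied carbon. Neither the deposited tables nor the reference gene table gives the nuclear identifiers a name or function, so the nuclear genes are given by identifier and position and no role is stated for them.

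Some libraries stood apart before any member was considered. Each library held between 6695500 and 8469882 reads in genes, and 1 CPM stood for 4.05 to 12 reads. The library labelled nitrite 15 min number 2 lay closer to the other nitrite libraries of 3 h, and the library labelled nitrite 3 h number 2 lay closer to the others of 15 min. Both held at once for 28 of the 43 control-raised members (65.1%), for 17 of the 21 control-lowered members (81%) and for 56% of all features. Control 3 h number 3 had the highest share of reads that aligned more than once (36.5%), and its TMM factor was 0.604. The labels were kept. For nitrite against control at 3 h, the main test results are also given without all 3 of these libraries. The same holds for 3 h against 15 min in the nitrite arm. Other ratios and counts at 15 min and 3 h are given only with these libraries.

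Members were few among the genes that moved. Of 1062 features at or above 5 CPM whose control level was at least 2-fold higher at 24 h than at 15 min, 43 also had a nitrite level of at most 0.5 times the control level at 24 h. Of 1277 features with a control level at 24 h of at most 0.5 times that at 15 min, 21 were at least 2-fold higher with nitrite at 24 h. Over all features tested, with no limit on CPM, 9.55% were at least 2-fold higher and 13.2% at most 0.5-fold at 24 h in the control arm. Of the same features, 6.62% were at most 0.5-fold and 7.67% at least 2-fold with nitrite at 24 h. Among the 9980 features at or above 5 CPM, 682 were at most 0.5-fold and 925 at least 2-fold with nitrite at 24 h. The ratio of nitrite to control at 24 h and the ratio of 24 h to 15 min in the control arm both contain the control libraries of 24 h, so a chance deviation of those libraries moves a gene toward membership in both. These levels are therefore described and not tested.

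**Figure D1:**
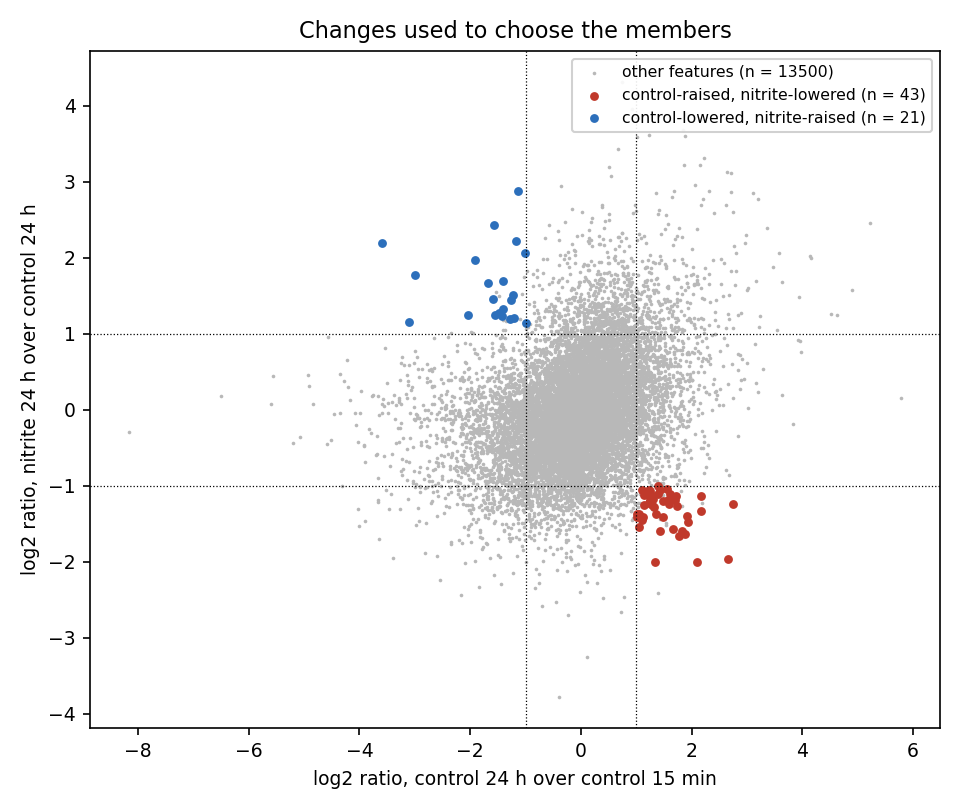
Each point is 1 of the 13564 features, with the log2 ratio of control 24 h over control 15 min on the x axis and of nitrite 24 h over control 24 h on the y axis, both from group mean CPM plus 0.5. Dotted lines mark ratios of 2 and 0.5, and the 43 control-raised members (lower right) and 21 control-lowered members (upper left) lie in the sparsely filled corners.

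The limits of the rule ran through a continuum. Among control-raised genes, Cre03.g203750 was inside with ratios of 0.498 for nitrite over control at 24 h and 2.64 for control 24 h over 15 min, and Cre14.g609900 with 0.386 and 2.01. Just outside, Cre03.g143867 had 0.503 and 2.41 for the same 2 ratios, and Cre17.g731300 had 0.461 and 1.996. Among control-lowered genes, Cre07.g355850 was inside with 2.21 and 0.49987 and Cre16.g663950 with 4.16 and 0.498, while Cre05.g233950 was outside with 1.98 and 0.345 and Cre05.g244701 with 2.08 and 0.504. The control libraries of 24 h were not alike in these genes. On a log2 scale centred on each gene's mean over all libraries, the median of the 43 control-raised members was 1.23, 1.25 and 0.972 in control 24 h libraries 1, 2 and 3, and that of the 21 control-lowered members was -1.32, -1.24 and -0.844. Without library 3 of that group the rule gave 60 control-raised and 58 control-lowered genes.

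**Figure D2:**
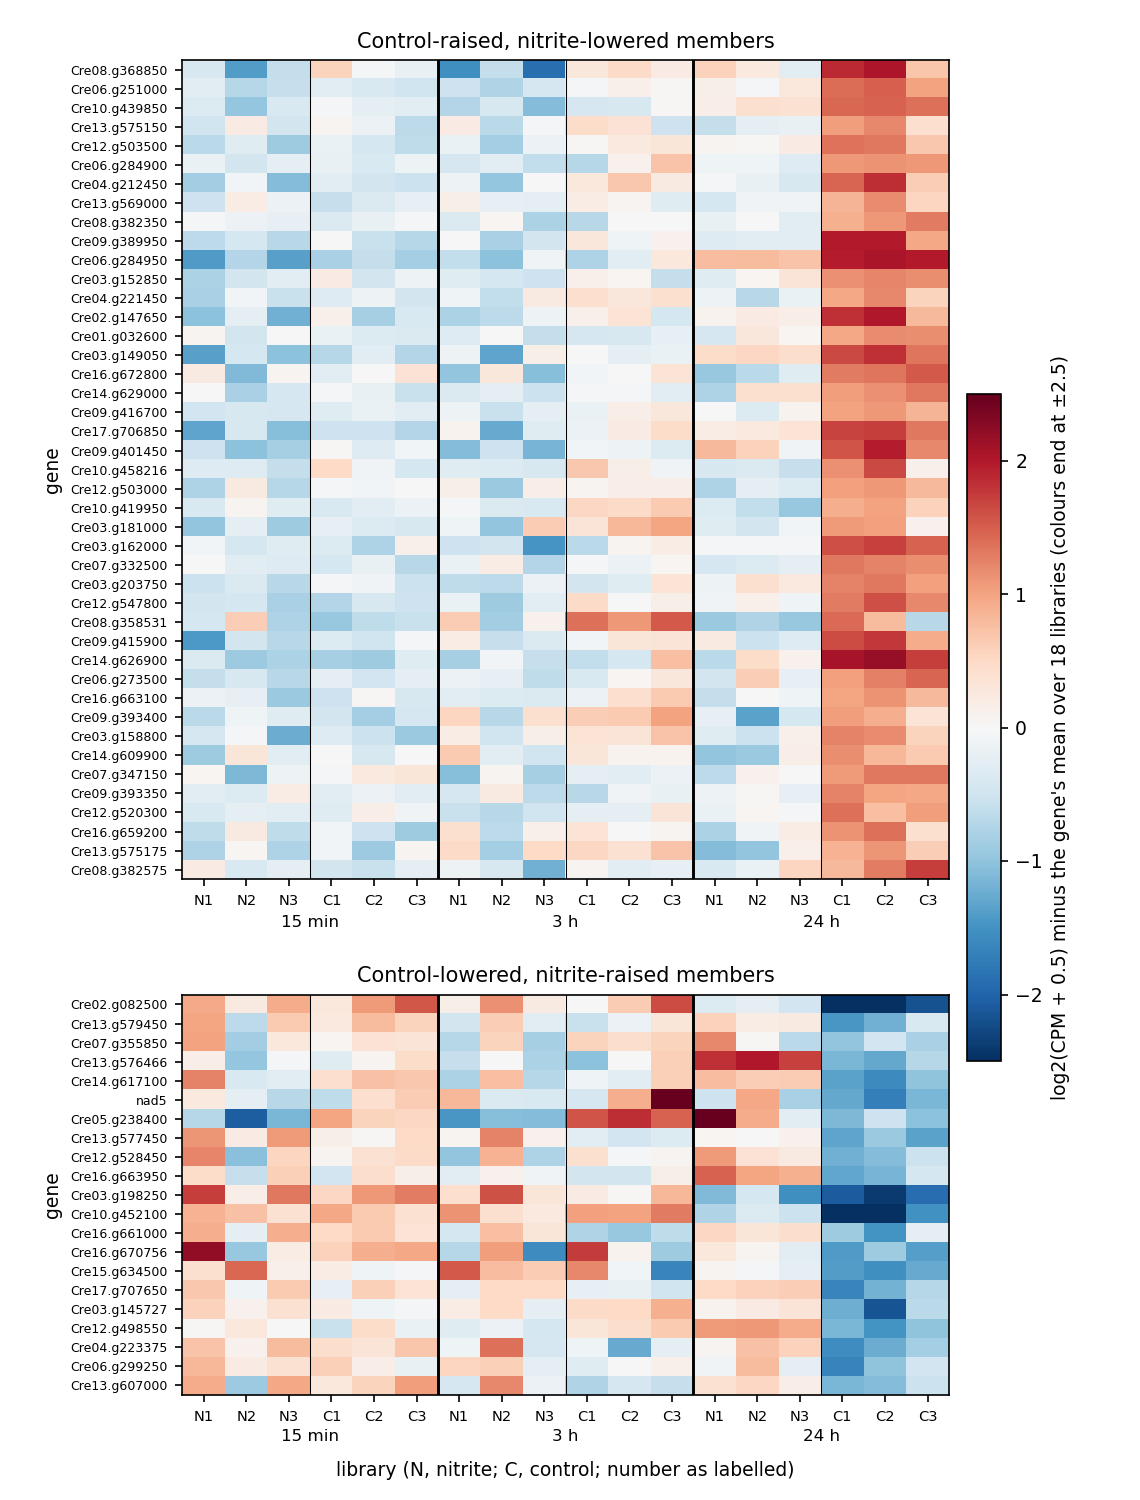
Heat map of the 64 members (rows, by falling highest group mean within each direction) in the 18 libraries (columns; N, nitrite, left of C, control, at 15 min, 3 h and 24 h). Colour is log2(CPM + 0.5) minus the gene's own mean, and control libraries of 24 h stand out as red in the upper block and blue in the lower, with library C3 of 24 h the palest of the 3 in most members.

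The control-raised members had a median ratio of 0.418 for nitrite over control at 24 h, from 0.249 to 0.498, and a median ratio of 2.68 for control 24 h over control 15 min, from 2.01 to 6.68. In all 43, every nitrite library of 24 h lay below every control library of 24 h, which held for 23.2% of all features; the rule used this contrast and nothing is read from that count. CPM is not corrected for gene length, so levels are compared within a gene and not between genes. In bulk RNA, fewer cells with a transcript and less of it per cell cannot be told apart.

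Cre08.g368850, on chromosome 8 from base 2107426 to 2109912, had the highest CPM of the control-raised members. Its level at 24 h was 296, 236 and 163 CPM in nitrite libraries, against 726, 807 and 324 CPM in control libraries, while control libraries of 15 min held 295, 193 and 176 CPM. All 3 control libraries of 24 h were above every other library of the gene, although library 3 exceeded the highest nitrite library by little. Cre06.g251000, on chromosome 6 from 292285 to 293811, showed the same order with less spread. Nitrite libraries of 24 h had 76.8, 68.7 and 83.4 CPM, against 185, 196 and 141 CPM in control libraries of 24 h and 57.7, 53.3 and 48.9 CPM in control libraries of 15 min.

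Cre10.g439850, on chromosome 10 from 2868876 to 2872703, varied little among libraries of 24 h. Its values were 64.4, 75.8 and 74.5 CPM with nitrite, against 156, 159 and 148 CPM in the control arm at 24 h and 55.2, 49.0 and 47.6 CPM there at 15 min. The nitrite level of 24 h was thus above all control libraries of 15 min and below all control libraries of 24 h. In Cre12.g503500, on chromosome 12 from 2722220 to 2729613, nitrite libraries of 24 h had 17.6, 17 and 19.4 CPM, against 43.6, 42.4 and 27.0 CPM in control libraries of 24 h and 14.7, 12.2 and 10.6 CPM in those of 15 min. Here too the nitrite values of 24 h sat above the 15 min control values without overlap.

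**Figure D3:**
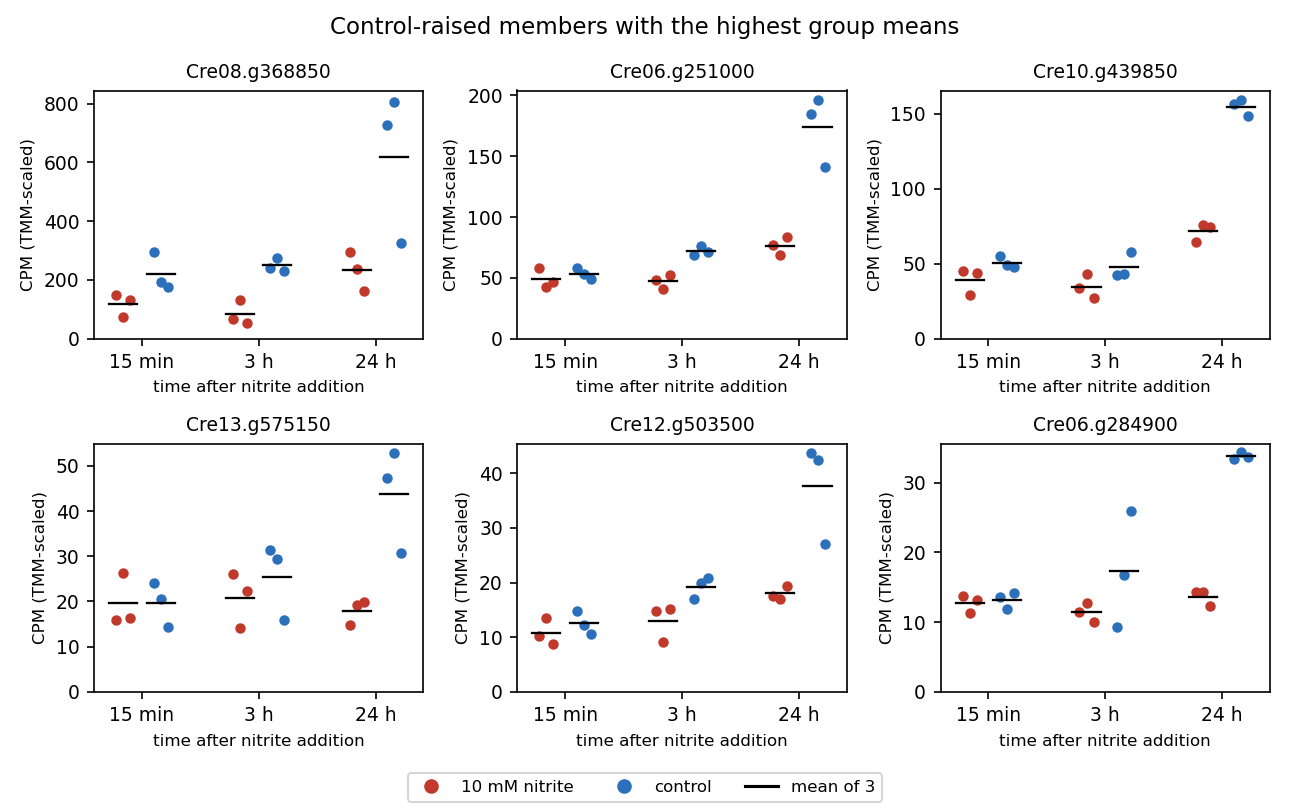
CPM of the 6 control-raised members with the highest group means in each library at 15 min, 3 h and 24 h, nitrite (red) left of control (blue), with a bar at the mean of 3. In every panel the 3 control libraries of 24 h lie above the 3 nitrite libraries of 24 h, and library 3 is the lowest of those controls in all panels but that of Cre06.g284900.

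The control-raised members with the largest opposing ratios were lower in CPM. In Cre09.g389950, on chromosome 9 from 2661054 to 2665569, nitrite libraries of 24 h had 5.20, 5.45 and 5.35 CPM, against 27.8, 27.5 and 13.5 CPM in control libraries of 24 h and 6.66, 4.33 and 3.87 CPM in control libraries of 15 min. The nitrite group mean of 5.34 ± 0.127 CPM (SD, n = 3) lay within the range of the 15 min controls. Cre14.g626900, on chromosome 14 from 2732669 to 2736860, had 0.897, 2.56 and 1.89 CPM with nitrite at 24 h, against 8.75, 9.57 and 6.81 CPM in control libraries of 24 h and 0.750, 0.702 and 1.29 CPM in those of 15 min. Its read counts were 5, 15 and 12 with nitrite at 24 h, 67, 77 and 50 in control libraries of 24 h and 9, 6 and 9 in the control libraries of 15 min, so its ratios carry a large counting error.

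Cre03.g162000, on chromosome 3 from 2779682 to 2783682, had 2.87, 2.90 and 2.83 CPM in nitrite libraries of 24 h, against 10.1, 10.8 and 9.13 CPM in the control libraries of that time and 2.25, 1.52 and 3.30 CPM in those of 15 min. In Cre04.g212450, on chromosome 4 from 1724650 to 1727509, the nitrite mean at 24 h was 9.94 ± 1.23 CPM, against 31.0 ± 12.3 CPM in the control arm at 24 h and 8.42 ± 0.818 CPM there at 15 min (SD, n = 3 each). Cre07.g332500, on chromosome 7 from 2891328 to 2897792, averaged 2.91 ± 0.229 CPM with nitrite at 24 h, against 9.67 ± 0.532 CPM in the control arm at 24 h and 2.70 ± 0.563 CPM there at 15 min (SD, n = 3 each). Cre09.g415900, on chromosome 9 from 7718812 to 7722067, averaged 2.33 ± 0.800 CPM with nitrite at 24 h, against 8.44 ± 2.51 CPM in the control arm at 24 h and 2.11 ± 0.424 CPM there at 15 min (SD, n = 3 each). In these 4 genes the nitrite mean of 24 h was within 1.5 times the control mean of 15 min.

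Nitrite cultures of 24 h thus held most control-raised members near the level of control cultures at 15 min. The ratio of nitrite 24 h over control 15 min had a median of 1.11, from 0.625 to 2.83, and was between 0.5 and 2 in 41 of the 43 (95.3%), against 59.2% of all features and 11.8% of the other 1019 control-raised features. Both groups were used by the rule, so this is a description of the choice. The other 2 were Cre06.g284950 and Cre03.g149050, which were also higher within the nitrite arm. Cre06.g284950 had 8.97, 9.03 and 8.50 CPM in nitrite libraries of 24 h, against 21.2, 22.3 and 21.3 CPM in control libraries of 24 h and 2.66, 3.16 and 2.58 CPM in control libraries of 15 min. Within the nitrite arm, its ratio of 24 h over 15 min was 3.71. Cre03.g149050 averaged 7.25 ± 0.218 CPM with nitrite at 24 h, against 16.6 ± 2.78 CPM in the control arm at 24 h and 3.29 ± 0.695 CPM there at 15 min (SD, n = 3 each). For these genes the nitrite arm moved in the same direction as the control arm and stopped short of it. In all, 4 of the 43 (9.30%) were at least 2-fold higher at 24 h than at 15 min in the nitrite arm, against 16.3% of all features; Cre17.g706850 with a ratio of 2.19 and Cre09.g401450 with 2.38 were the others.

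The difference in the control arm was mostly one of the interval between 3 h and 24 h. The ratio of control 3 h over control 15 min had a median of 1.29 and was at least 2 in 4 of the 43 control-raised members (9.30%), against 2.54% of all features. Every control library of 24 h lay above every control library of 3 h in 34 members (79.1%). That held for 25.5% of all features and for 89.4% of the other control-raised features. The rule used the control libraries of 15 min and 24 h, so these counts are a description of the choice. Cre08.g358531 was the exception in shape. In nitrite libraries it had 2.24, 5.11 and 1.65 CPM at 15 min, 5.25, 1.53 and 3.46 CPM at 3 h and 1.43, 1.70 and 1.42 CPM at 24 h. Control libraries had 1.42, 1.87 and 2.01 CPM at 15 min, 9.03, 7.37 and 10.1 CPM at 3 h and 9.28, 5.84 and 1.77 CPM at 24 h. Its control libraries of 24 h spanned nearly the whole range between the 15 min and the 3 h level, and it entered the rule through libraries 1 and 2 of that group. The other 3 with an early difference were Cre09.g393400, Cre03.g181000 and Cre03.g158800, with ratios of 2.52, 2.07 and 2.05. In the first pair of these the control mean of 24 h was close to that of 3 h, at 7.64 against 7.52 CPM for Cre09.g393400 and 10.1 against 9.70 CPM for Cre03.g181000.

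The comparison of nitrite with control at 3 h used no library of the 2 ratios that chose the members. It asks whether the difference of 24 h was already present. Per the design text the same 3 flasks of each arm were sampled at every time. The libraries of 3 h are therefore not independent of those of the 2 ratios. Libraries of 3 h did enter the low-count filter, the TMM factors and the limit of 5 CPM on the highest group mean. All 43 control-raised members met that limit in a group of the ratios, and 2 control-lowered members, Cre06.g299250 and Cre15.g634500, met it only in other groups. Nearly all control-raised members had a lower level with nitrite at 3 h. The fitted log2 fold change was below 0 in 41 of the 43 (95.3%), with a median of -0.51 and a range from -1.56 to 0.14, against 51.6% and a median of -0.02 over all features. Of the other 1019 control-raised features, 468 (45.9%) were lower, with a median of 0.06. Of the 639 other features at 5 CPM or more whose nitrite level was at most 0.5 times control at 24 h, 519 (81.2%) were lower at 3 h, with a median of -0.33. A lower level at 3 h was thus common to genes that nitrite lowered at 24 h and not to genes that were higher in control cultures at 24 h, and no test was made of the members against other genes that nitrite lowered.

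Single genes seldom passed the test at 3 h. In 14 of the 43 control-raised members (32.6%) every nitrite library of 3 h lay below every control library of 3 h, against 12% of all features, and in none did every nitrite library lie above, against 10.8%. By edgeR's quasi-likelihood test with Benjamini-Hochberg adjustment over all 13564 features, 2 control-raised members (4.65%) were called lower with nitrite than in control. That held for 0.774% of all features. Called higher with nitrite were 0 members, against 1.95% of all features. At an unadjusted p under 0.05, 14 were lower and 0 higher, against 10.9% and 11.5% of all features. DESeq2 called 3 lower and 0 higher, against 2.72% and 5.23% of the 10934 features to which it gave an adjusted p.

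Cre08.g368850 was called lower with nitrite at 3 h, with 68.3, 131 and 53.3 CPM in nitrite libraries, against 241, 275 and 229.7 CPM in control libraries. All 3 nitrite values were below the lowest control value, and the log2 fold change was -1.56 with a standard error (SE) of 0.36 (edgeR adjusted p = 0.0329). The gene had 149.7, 75.1 and 132 CPM in nitrite libraries of 15 min, against 295, 193 and 176 CPM in control libraries of 15 min, again without overlap. At each time its 3 nitrite libraries were below its 3 control libraries. Without the 3 libraries that stand apart the log2 fold change at 3 h was -2.08 (edgeR adjusted p = 0.0248), but the call was lost without nitrite 3 h library 1 or 3 or control 3 h library 2 or 3, with adjusted p between 0.0632 and 0.139, with library totals in place of TMM factors (0.156) and with only the groups of 3 h in the fit (0.129).

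Cre10.g419950, on chromosome 10 from 296224 to 303805, was also called lower with nitrite than in control at 3 h. It had 6.0, 4.79 and 4.69 CPM in nitrite libraries of 3 h, against 9.13, 8.93 and 10.1 CPM in control libraries, with a log2 fold change of -0.85 and an SE of 0.21 (edgeR adjusted p = 0.0371). At 24 h it had 4.84, 3.92 and 2.99 CPM in nitrite libraries, against 12.2, 13.1 and 9.54 CPM in control libraries, and at 15 min the arms overlapped, with 4.70, 6.59 and 4.95 CPM in nitrite and 4.66, 5.15 and 5.59 CPM in control libraries. The control level was therefore higher from 3 h on while the nitrite level stayed between 2.99 and 6.59 CPM in all 9 libraries. Its call was lost without nitrite 3 h library 2 or 3, without control 3 h library 2 or 3, or without the 3 libraries that stand apart, with adjusted p between 0.0634 and 0.139, with library totals (0.369), with only the groups of 3 h in the fit (0.185) and with the replicate number as a block (0.0529). Cre06.g251000 came close to the threshold, with 48.6, 41.0 and 52.2 CPM with nitrite at 3 h, against 68.7, 76.2 and 71.2 CPM in controls (log2 fold change -0.61 ± 0.18 SE; edgeR, adjusted p = 0.0556).

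The count of all features called at 3 h moved with single libraries. It was 370 (2.73%) with all libraries, 8 without control library 2, 69 without control library 3, 42 without nitrite library 2, 210 without nitrite library 1 and 1395 without control library 1 of 3 h. The number of control-raised members with a lower level was 38 to 41 over the 6 fits that leave out 1 library of 3 h. With the 3 libraries that stand apart left out it was 37 (86%), with a median log2 fold change of -0.31, against 50.8% and a median of -0.01 over all features, 31.5% of the other control-raised features and 84.4% of the other features lowered by nitrite at 24 h. In that fit 2 control-raised and 0 control-lowered members were called lower, against 100 features (0.737%), and 0 members were called higher, against 132 features (0.973%), of 232 (1.71%) called in all. With library totals in place of TMM factors, which raises the median over all features by 0.28, the number of control-raised members lower was 31 (72.1%). The share was then 25.9% over all features and 52.7% over the other features lowered by nitrite at 24 h.

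**Figure D4:**
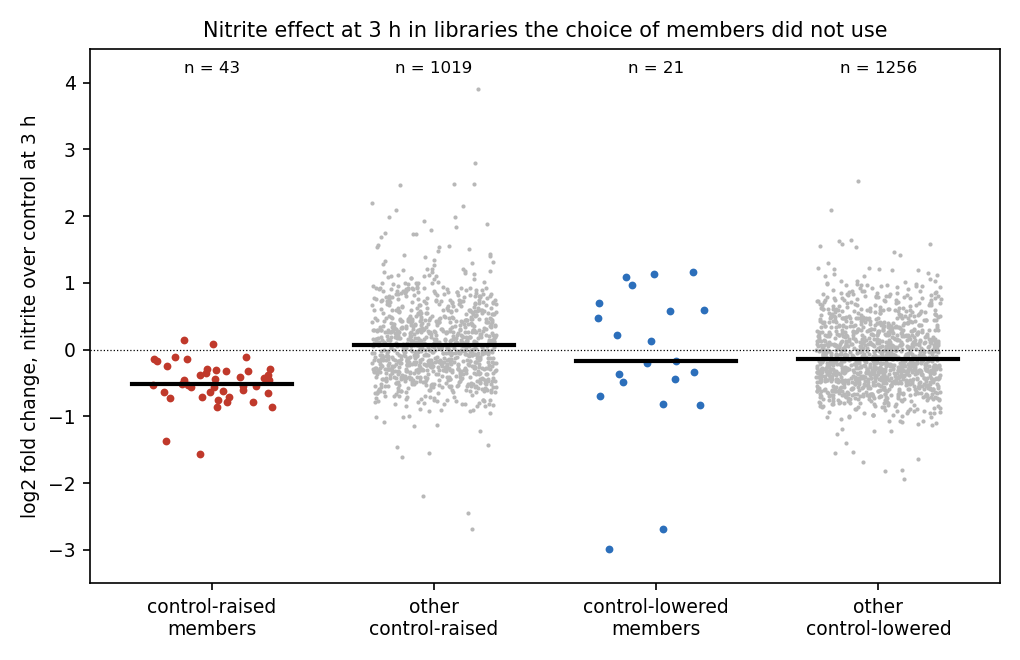
Log2 fold change of nitrite over control at 3 h (edgeR fit) for the control-raised members, the other control-raised features, the control-lowered members and the other control-lowered features, 1 point per gene and a bar at the median. The control-raised members centre at -0.51, below the 0.06 of the other control-raised features, while the control-lowered members spread from -2.98 to 1.17 around -0.16. By the rule, the other control-raised features exclude genes with nitrite at most 0.5 times control at 24 h. The other features lowered by nitrite at 24 h, not shown, had a median of -0.33.

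At 15 min the ratio of nitrite to control had a median of 0.883 over the control-raised members, and the nitrite mean was lower in 31 of the 43 (72.1%), against 47.9% of all features; the control libraries of 15 min are among those the rule used. Within the nitrite arm, the comparison of 3 h with 15 min used no library of the 2 ratios. Its flasks were also those of the nitrite libraries of 24 h, which the rule used. The level at 3 h was lower than at 15 min in 14 control-raised members (32.6%). The share was 51% over all features and 36.3% over the other control-raised features. The median log2 fold change of the members was 0.09. By edgeR, 0 members and 0 features (0%) were called in this comparison, and at an unadjusted p under 0.05 there were 1 control-raised member and 197 features (1.45%). DESeq2 also called 0 features. Without the 3 libraries that stand apart, 13 control-raised members were called higher and 4 lower, against 10.4% and 10.8% of all features. The 2 nitrite libraries among them were picked because they lay with the other time, which by itself widens the difference between the times, so these counts are only a description.

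Some control-raised members lie side by side. With neighbours taken as consecutive loci of the reference table, 6 of the 43 (14%) had a neighbour that was also a member, in 3 pairs. Among all 1062 control-raised features, 20.6% had a control-raised neighbour, a share over a larger set that cannot be set directly against that of the members. Cre06.g284900 and Cre06.g284950 lie on chromosome 6 from 5517115 to 5519585 and from 5519647 to 5522235, with 61 bases between them. Cre06.g284900 had 14.3, 14.3 and 12.3 CPM in nitrite libraries of 24 h, against 33.4, 34.3 and 33.6 CPM in control libraries of 24 h and 13.7, 11.8 and 14.2 CPM in control libraries of 15 min. Its nitrite level of 24 h overlapped that of the 15 min controls, while its neighbour Cre06.g284950 was above them in both arms at 24 h. The next tested locus, Cre06.g285001, had ratios of 0.998 for nitrite over control at 24 h and 1.25 for control 24 h over 15 min.

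The pair Cre13.g575150 and Cre13.g575175 lies on chromosome 13 from 1811371 to 1820454 and from 1820585 to 1823586, with 130 bases between them. Cre13.g575150 had 14.9, 19.3 and 19.8 CPM in nitrite libraries of 24 h, against 47.3, 53.0 and 30.8 CPM in control libraries of 24 h. For Cre13.g575175 the values were 1.08, 1.19 and 3.15 CPM with nitrite, against 5.62, 6.71 and 4.63 CPM in controls of 24 h. On either side, Cre13.g575101 and Cre13.g575200 had nitrite ratios of 1.79 and 0.720 at 24 h and control ratios of 0.828 and 0.313 for 24 h over 15 min. The third pair, Cre09.g393400 and Cre09.g393350 on chromosome 9, named after its values were seen, spans 2145641 to 2151285 and 2151386 to 2153511. Cre09.g393400 was higher in controls already at 3 h, at 7.52 ± 1.20 CPM against 2.68 ± 0.497 CPM at 15 min, and Cre09.g393350 was not, at 2.49 ± 0.627 CPM against 2.66 ± 0.130 CPM (SD, n = 3 each). The table used here gives no strand, and reads of adjoining transcripts that overlap could have been lost or shared between them.

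The control-lowered members had a median ratio of 2.75 for nitrite over control at 24 h, from 2.21 to 7.34, and a median ratio of 0.374 for control 24 h over control 15 min, from 0.0828 to 0.4999. Every nitrite library of 24 h lay above every control library of 24 h in 20 of the 21 (95.2%), against 24.2% of all features, in a contrast that the rule used. The exception was Cre07.g355850, on chromosome 7 from 6141526 to 6143655. It had 491, 219 and 133 CPM in nitrite libraries of 24 h, against 107, 153 and 121 CPM in control libraries of 24 h and 220.1, 275 and 269 CPM in those of 15 min. Nitrite library 1 raises its mean, and library 3 lies among the controls.

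Cre02.g082500, on chromosome 2 from 1241637 to 1244122, had the lowest control ratio of the set. Nitrite libraries of 24 h held 271, 288 and 247 CPM, against 55.5, 44.6 and 75.2 CPM in control libraries of 24 h and 409, 718 and 1008 CPM in control libraries of 15 min. Both arms were lower at 24 h than at 15 min, and the nitrite arm by less: 269 ± 21 CPM at 24 h, against 569 ± 148 CPM at 15 min (SD, n = 3 each). Cre13.g579450, on chromosome 13 from 2378584 to 2381121, kept a mean level with nitrite at 24 h inside the range of the 15 min controls. It had 651, 496 and 507 CPM in nitrite libraries of 24 h, against 159.8, 189 and 334 CPM in control libraries of 24 h and 519, 754 and 641 CPM in those of 15 min.

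**Figure D5:**
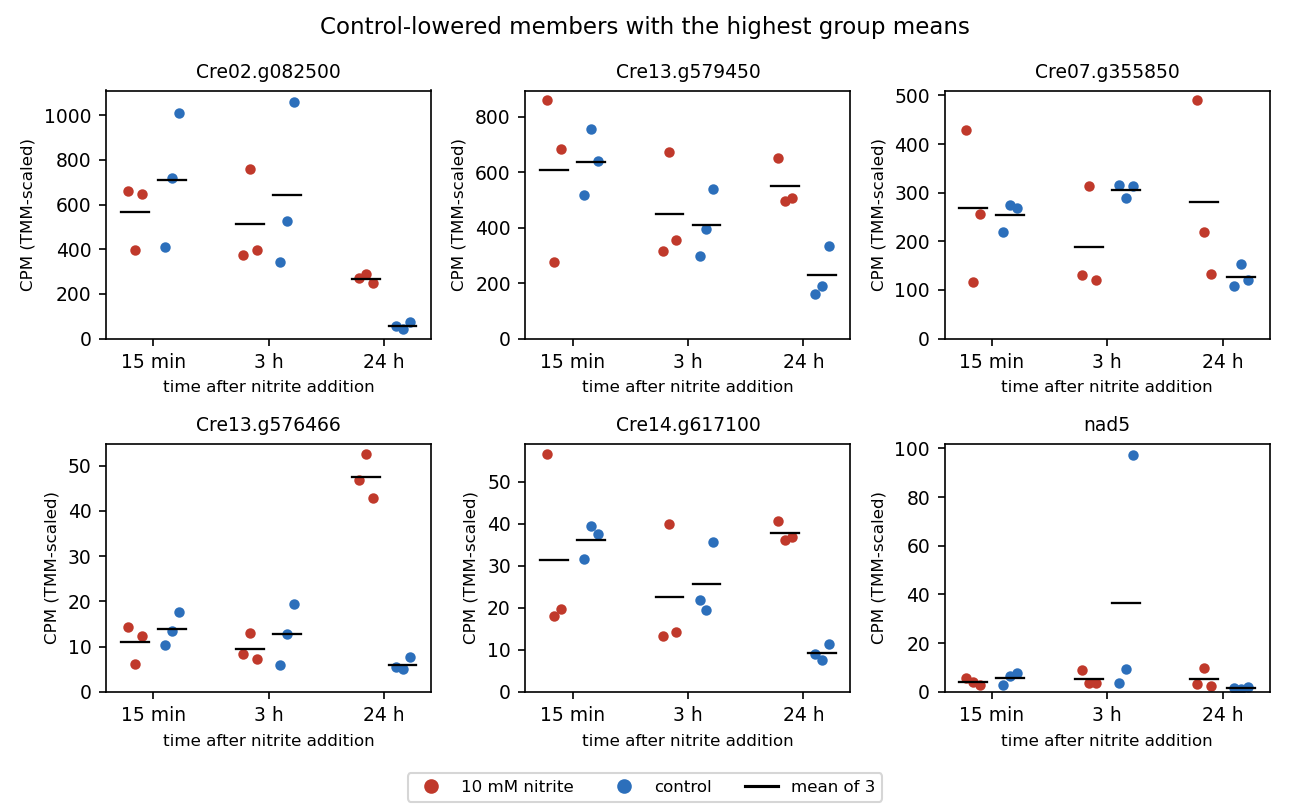
CPM of the 6 control-lowered members with the highest group means in each library at 15 min, 3 h and 24 h, nitrite (red) left of control (blue), with a bar at the mean of 3. Nitrite libraries of 24 h lie above the controls of that time except in Cre07.g355850, where they overlap, and the nad5 panel is set by 1 control library of 3 h at 97.2 CPM.

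Cre14.g617100, on chromosome 14 from 1355499 to 1357606, had 40.7, 36.1 and 36.8 CPM in nitrite libraries of 24 h, against 9.02, 7.46 and 11.4 CPM in control libraries of 24 h and 31.6, 39.5 and 37.6 CPM in those of 15 min. In Cre04.g223375, on chromosome 4 from 2702183 to 2708114, the nitrite libraries of 24 h had 5.02, 8.35 and 7.40 CPM, against 1.31, 1.74 and 2.45 CPM in the controls of 24 h and 6.66, 6.08 and 8.03 CPM in the controls of 15 min. In both genes the nitrite level of 24 h overlapped that of control cultures at 15 min. The ratio of nitrite 24 h over control 15 min had a median of 1 over the 21 control-lowered members. It was between 0.5 and 2 in 15 (71.4%), against 59.2% of all features and 7.32% of the other 1256 control-lowered features. Both groups were used by the rule, so this too is a description of the choice.

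The remaining 6 control-lowered members ended well away from the 15 min control level. For 3 of them nitrite only lessened a lower level of 24 h: Cre02.g082500, Cre10.g452100 and Cre03.g198250, with nitrite 24 h over control 15 min of 0.378, 0.430 and 0.259. Cre10.g452100, on chromosome 10 from 4520613 to 4523220, had 3.59, 4.94 and 4.25 CPM in nitrite libraries of 24 h, against 0.261, 0.497 and 1.91 CPM in control libraries of 24 h and 13, 10.3 and 8.46 CPM in those of 15 min. Its control values of 24 h rest on 2, 4 and 14 reads. The other 3, Cre13.g576466, Cre12.g498550 and Cre16.g663950, were above the 15 min control level with nitrite, with ratios of 3.35, 2.08 and 2.07.

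Cre13.g576466, on chromosome 13 from 1953808 to 1954294, had the highest nitrite ratio of all members. It had 46.8, 52.5 and 43 CPM in nitrite libraries of 24 h, against 5.49, 4.97 and 7.63 CPM in control libraries of 24 h and 10.3, 13.4 and 17.6 CPM in control libraries of 15 min. Its nitrite libraries of 15 min and 3 h had 6.25 to 14.4 CPM, so within the nitrite arm the high level appeared only in the 24 h libraries, with a ratio of 4.17 for 24 h over 15 min.

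At 3 h the control-lowered members did not share a direction. The log2 fold change of nitrite over control was below 0 in 11 of the 21 (52.4%) and above 0 in 10, with a median of -0.16. Over all features 51.6% were lower, with a median of -0.02. Among the 904 other features at 5 CPM or more that were at least 2-fold higher with nitrite at 24 h, 128 (14.2%) were lower at 3 h and the median was 0.53; among the other control-lowered features 60.4% were lower, with a median of -0.14. With the 3 libraries that stand apart left out, 11 of the 21 were again lower, against 15.8% of the other features raised by nitrite at 24 h. With library totals in place of TMM factors the count was 7 (33.3%). The share was then 25.9% over all features and 4.09% over the other features raised by nitrite at 24 h. By edgeR, 1 control-lowered member (4.76%) was called lower with nitrite at 3 h, against 0.774% of all features. Called higher with nitrite were 0, against 1.95%. At an unadjusted p under 0.05, 3 were lower and 5 higher, against 10.9% and 11.5% of all features. DESeq2 called 2 lower and 2 higher, against 2.72% and 5.23% of the features to which it gave an adjusted p. Without Cre06.g299250 and Cre15.g634500, 11 of the other 19 members were lower at 3 h.

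The member called lower with nitrite at 3 h by edgeR was Cre05.g238400, on chromosome 5 from 3008696 to 3012405. Its nitrite difference at 3 h was opposite to that at 24 h. At 15 min it had 5.37, 1.82 and 3.88 CPM in nitrite libraries, against 18.6, 13.8 and 13.3 CPM in control libraries, without overlap. At 3 h it had 3.0, 4.12 and 4.07 CPM in nitrite libraries, against 28.1, 34.3 and 26.2 CPM in control libraries (log2 fold change -2.98 ± 0.55 SE; edgeR, adjusted p = 0.0176). At 24 h the order was turned round, with 59.0, 17.9 and 7.40 CPM in nitrite libraries, against 3.92, 6.22 and 4.22 CPM in control libraries. The nitrite libraries of 24 h spread over 28.1 ± 27.3 CPM (SD, n = 3), and library 3 exceeded the highest control by little. The call at 3 h was lost without nitrite library 2 (adjusted p = 0.0809), without control library 2 (0.0574) and without the 3 libraries that stand apart (0.0909), with log2 fold changes between -3.14 and -2.86.

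Others did not pass the test. Cre12.g498550, on chromosome 12 from 3240181 to 3243608, had 3.22, 3.64 and 2.84 CPM with nitrite at 3 h, against 5.14, 5.67 and 6.67 CPM in controls, without overlap (log2 fold change -0.82 ± 0.26 SE; edgeR, adjusted p = 0.0807). At 24 h it had 8.97, 9.20 and 8.19 CPM with nitrite, against 1.57, 1.12 and 1.77 CPM in controls. In 2 members every nitrite library of 3 h lay above every control library, which held for 10.8% of all features, and in 2 every one lay below, against 12%. Cre16.g661000 had 6.22, 14.8 and 10.7 CPM with nitrite at 3 h, against 4.93, 4.25 and 5.44 CPM in controls (log2 fold change 1.14 ± 0.35 SE; edgeR, adjusted p = 0.0736). Cre13.g577450 had 15.5, 35.8 and 16.1 CPM with nitrite, against 12.3, 10.5 and 11.6 CPM in controls (log2 fold change 0.97 ± 0.28 SE; edgeR, adjusted p = 0.0599). In both, the highest nitrite value was that of library 2, 1 of the libraries that stand apart.

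The member nad5 is the mitochondrial gene for a subunit of NADH dehydrogenase, complex I of the respiratory chain. It had 3.23, 9.89 and 2.52 CPM in nitrite libraries of 24 h, against 1.70, 1.12 and 1.91 CPM in control libraries of 24 h and 2.91, 6.67 and 7.74 CPM in those of 15 min. At 3 h it had 9.0, 3.64 and 3.58 CPM with nitrite, against 3.46, 9.49 and 97.2 CPM in controls, and the log2 fold change was -2.69 with an SE of 0.87 (adjusted p = 0.0927 by edgeR). The mean of the controls rests on library 3, the one with the largest share of reads aligned more than once. Without the 3 libraries that stand apart, that one among them, the log2 fold change was 0.03 (SE 0.72, adjusted p = 0.99 by edgeR). Libraries were made from polyadenylated RNA, so organelle transcripts are sampled incompletely. Of the 25 organelle features that the files name, 3 passed the filter, and the other 2, cob and nad4, which encode cytochrome b and another complex I subunit, were not members. The nitrite over control ratios of cob and nad4 at 24 h were 1.30 and 1.32.

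Within the nitrite arm, 18 of the 21 control-lowered members (85.7%) had a lower level at 3 h than at 15 min. The share was 51% over all features and 71% over the other control-lowered features. The median log2 fold change of the members was -0.21. None passed the edgeR test, and none had an unadjusted p under 0.05. Leaving out nitrite 15 min library 1 lowered the count to 8. In Cre13.g579450 the nitrite libraries labelled 3 h had 318, 672 and 357 CPM, against 859.7, 277 and 683 CPM in those labelled 15 min, so libraries 2 were each nearest to the other time. Without the 3 libraries that stand apart 9 control-lowered members were called lower and 1 higher, against 10.8% and 10.4% of all features, with the same limit on reading as above.

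In the control arm the control-lowered members were divided at 3 h. The ratio of control 3 h over control 15 min had a median of 0.896 and was at most 0.5 in 2 of the 21 (9.52%), against 2.29% of all features. Every control library of 24 h lay below every control library of 3 h in 13 (61.9%). That held for 26.7% of all features and for 88.2% of the other control-lowered features. The rule used the control libraries of 15 min and 24 h, so these counts are a description of the choice. In the nitrite arm, 4 members (19%) had a level at 24 h of at most 0.5 times that at 15 min, against 21.5% of all features, and 2 were at least 2-fold higher, Cre05.g238400 with a ratio of 6.83 and Cre13.g576466 with 4.17. At 15 min the ratio of nitrite to control had a median of 1.08.

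The members were spread over the genome. The control-raised members lay on 14 chromosomes and the control-lowered on 13. Median gene span was 3966 bases for control-raised and 3416 bases for the 20 control-lowered members with a position, against 4688 bases for all features with one. Total reads over the 18 libraries ran from 298 to 35872 per control-raised member, with a median of 877, and from 555 to 69938 per control-lowered member, with a median of 1300.

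Lists of loci for pathways around nitrite, light and dark metabolism were also looked up. Loci were assigned to them from prior knowledge that the tables cannot check. Of 7 loci for nitrate and nitrite uptake and reduction 3 were tested, and 0 were members in either direction. The same held for 3 tested loci of nitric oxide handling, 2 of alternative oxidase, 2 of the glyoxylate cycle, 13 of light harvesting and 4 of fermentation, and none of 3 photoprotection loci was tested. Only 64 of 13564 features (0.472%) were members, so a count of 0 among these 27 tested loci is near the share over all features and is no result about the lists. The organelle features had 1 member, nad5, among 3 tested.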

How the data were processed

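Polyadenylated RNA of 18 *C. reinhardtii* libraries was measured in 6 groups of 3, assigned by the labels. The deposited values are whole-number read counts per gene, unnormalised, 1 table per library. The submitters' processing notes name TopHat2 2.0.13 and HTSeq; no build, strand setting or rule for multiple alignments is given in the sources used here. The 5 summary lines of each table stayed out of totals and tests: as shares of all reads, reads outside genes made up 0.892% to 1.67%, ambiguous reads 0.0597% to 0.439% and multiply aligned reads 16.7% to 36.5%. Overlapping genes and those with near-identical copies are uncertain.

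Of 17766 features, edgeR's filterByExpr by group (minimum count 10) kept 13564 and removed 4202; the 9980 with a highest group mean of at least 5 CPM could be members. Factors were TMM. edgeR 4.0.16 in R 4.3.3 fitted 1 robust quasi-likelihood model with a mean per group (12 residual degrees of freedom). The model took all libraries as independent, although flasks were sampled at every time. The code was run on simulated independent counts with known changes. Those counts held no libraries that stand apart and no repeated flasks, so they do not give error rates for these data. SE is the log2 fold change over the square root of F. Adjusted p-values are Benjamini-Hochberg over 13564 features and called under 0.05. Counts of non-overlapping groups and of fold ratios are descriptions. Alternatives were DESeq2 1.42.0, other scaling, filters and limits, a replicate block and left-out libraries. All replicate pairs differed by more than sampling noise (smallest chi-square per degree of freedom 4.02).

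The members, the gene lists and the libraries to leave out were chosen with earlier results of these data known. Named members are, in each direction, the 6 with the largest smaller ratio and the 6 with the highest group mean. Those called in a test, the nearest to the limits and the 2 neighbour pairs with the highest summed CPM were also named. The other members named were chosen after their values were seen. Positions come from the reference gene table of the assembly Chlamydomonas_reinhardtii_v5.5, which matched 17738 of 17741 nuclear identifiers. Exons, protein identity, protein patterns and promoter motifs were not analysed here.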

Additional observations from a re-analysis of the deposited data

Results flagged for a closer look

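For 2 control-lowered members the libraries of the arms separated in opposite directions at different times, and the difference between times was not tested. Such reversals were looked for among the members only, so no share over all features is known and nothing is read from the count. Over all features, every nitrite library lay below every control library at 3 h in 12%, and above at 24 h in 24.2%. The rule chose both genes for a higher level with nitrite at 24 h, and it also used the control libraries of 15 min. In Cre05.g238400 every nitrite library lay below every control library at 15 min, with a ratio of nitrite to control of 0.266, and again at 3 h, with 0.141, but above at 24 h, with 5.41. In Cre12.g498550 every nitrite library lay below at 3 h, with a ratio of 0.590, and above at 24 h, with 4.68.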

How the results depend on the processing

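The number of control-raised and of control-lowered members depended on the limits: 22 and 11 with 2 CPM added to the group means, 212 and 123 with a ratio limit of 1.5, 5 and 4 with a limit of 3, and 11 and 9 with a highest mean of at least 20 CPM. With a minimum of 1 CPM there were 33 control-lowered members, and with group medians 40, of which 16 were among the 21. Leaving out 1 library of the rule's groups gave 37 to 60 control-raised and 18 to 58 control-lowered members, both highest without control 24 h library 3. With library totals in place of TMM factors there were 57 control-raised members, 31 of them among the 43, and 19 control-lowered, 12 of them among the 21. At 3 h, the features called were 869 with DESeq2, 69 with library totals, 198 with the replicate block, 5 when only the 2 groups were fitted, 232 with the 3 libraries that stand apart left out, and 8 to 1395 with 1 library left out. Control-raised members called lower were 0 with library totals and with only the 2 groups, 1 with the replicate block and 0 to 5 with 1 library left out. Control-lowered members called lower were 2 with DESeq2, 0 without the 3 libraries and 0 to 2 with 1 left out, and those called higher were 2 with DESeq2 and 0 to 2 with 1 left out. Control-lowered members with a lower level at 3 h were 7 with library totals, and 8 to 12 with 1 library left out. In the nitrite arm, 3 h against 15 min, only the fit without the 3 libraries called any feature (2866; control-raised members 13 higher and 4 lower, control-lowered 1 higher and 9 lower), and control-lowered members with a lower level were 8 to 18 with 1 library left out. No fold change of the 3 called members changed sign under any alternative, but each lost its call under some of them; the cause was not tested. The replicate numbers were not taken to pair the samples: deviations of same-numbered libraries correlated at -0.00378, -0.0672 and 0.0788 between the arms at 3 h and at -0.49, -0.78 and -0.412 between 3 h and 15 min of the nitrite arm. In the nitrite arm the libraries labelled number 2 lay with the other time, so the numbers are not shown to be unpaired, and the replicate block is only a description. That block joined same-numbered libraries of both arms, although each arm had its own flasks. Members with under 1 CPM in a library rest on few reads, and their ratios are imprecise.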
